A study of Mus musculus with 14 samples.

Results

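Contractile smooth muscle actin genes encode the actins, actin-binding proteins and myosin subunits of the smooth muscle filament system. The 10 genes described here, Acta2, Tagln, Cnn1, Myl9, Tpm1, Tpm2, Actg2, Cald1, Lmod1 and Myh11, were chosen by gene symbol, and all 10 were found among the 55427 genes of the TPM table and the 30503 genes of the raw count table. All 10 were among the 17358 genes with enough counts to be tested. Values are given for 14 cultured clones measured by bulk RNA-seq, each expanded in culture from 1 tdTomato+ cell of the mouse femur marrow. Every mouse carried Fgfr3-creER, a transgene in which Fgfr3 regulatory sequences drive a tamoxifen-inducible Cre, and the R26R(tdTomato/+) reporter that marks recombined cells, and all received tamoxifen at P21. The 5 Fgfr3-WT clones (Fgfr3-creER; R26R(tdTomato/+)) were isolated at P23. The 5 Fgfr3-p53 cKO clones of P28 and the 4 Fgfr3-p53 cKO clones of 4 months (P4M) also carried Trp53fl/fl, so that p53 could be deleted in the cells that expressed the transgene. Fgfr3-WT and P28 clones were at passage 8 and P4M clones at passages 6 to 8, so each library describes 1 expanded culture rather than cells taken directly from bone. Clones are numbered within each group by name only. Whether clones of a group came from separate mice is not given clearly, so p-values measure the spread between clones, which may share a mouse.

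In smooth muscle, α-smooth muscle actin (Acta2) and γ-smooth muscle actin (Actg2) form thin filaments that slide along thick filaments of smooth muscle myosin. Tropomyosins, calponin, caldesmon and transgelin lie along the thin filaments, and phosphorylation of the myosin regulatory light chain switches contraction on. Many of these genes carry CArG boxes, the binding sites of serum response factor (SRF), whose coactivators are myocardin and the actin-regulated MRTF proteins. In bone marrow, Acta2 and Tagln are known from pericytes, vascular smooth muscle and stromal cells in culture, where they mark stress fibers and a myofibroblast state. Tpm1 and Cald1 also make non-muscle isoforms, which counts per gene do not separate.

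The labels were checked by Trp53, the targeted gene, which measured 49.9 to 68.2 CPM (counts scaled by library size) in the Fgfr3-WT clones, 2.18 to 2.84 CPM in P28 clones and 1.72 to 2.37 CPM in P4M clones. Total counts per clone ran from 25688946 to 38958693 in Fgfr3-WT, from 37606033 to 48648618 in P28 and from 43757832 to 52857424 in P4M. A count of 0 in a Fgfr3-WT library allows up to 3 counts, or 0.0854 to 0.121 CPM. The sample names of all Fgfr3-WT libraries carry the same number, and those of all Fgfr3-p53 cKO libraries carry another. What the number stands for is not given in the names. What goes with that number and the genotype cannot be told apart in any comparison with Fgfr3-WT. Age at isolation and time since tamoxifen differ along with the genotype too, and cannot be told apart from it. Equal passage is also not equal time in culture. The paper reports that Fgfr3-WT clones took significantly longer than P28 clones to reach the same passage. Time in culture thus goes with the genotype as well, and its part in the levels of these genes was not tested. P4M and P28 share a number, but there the age at isolation and the span of passages differ together and cannot be told apart.

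The promoter windows of 7 of the 10 genes were found in RefSeq (GRCm38.p6, 250 bases before to 50 bases after the transcript start). They are shown for Acta2 and Myl9, since these hold the only CArG boxes or near matches among the 7 genes. A complete CArG box, CC and GG around a run of A and T alone, was found in the window of Myl9 alone. Versions with 1 G or C inside the run, a search added after the first one was seen, occurred in Acta2 and again in Myl9. Each sequence below reads 5′ to 3′ on the gene's strand with the box in capitals, and distances run from the transcript start to the first base of the box.
Myl9 complete box, 161 bases upstream, chr2:156775293-156775322 (+): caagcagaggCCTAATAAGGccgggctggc
Myl9 near match, 99 bases upstream, chr2:156775355-156775384 (+): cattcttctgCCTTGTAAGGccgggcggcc
Acta2 near match, 84 bases upstream, chr19:34255438-34255467 (-): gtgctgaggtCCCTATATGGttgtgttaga
Acta2 near match, 34 bases upstream, chr19:34255388-34255417 (-): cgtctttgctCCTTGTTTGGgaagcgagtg
Both strands were covered, as the box reads the same on each. In GENCODE, Acta2 starts further upstream than in RefSeq, so both Acta2 boxes lie inside the gene interval given below. Over all 32851 RefSeq windows, 1.63% held a complete box and 8.5% a near match. Of the members, 1 of 7 genes held a complete box and 2 of 7 a near match, against 1.81% and 9.69% of all 27025 genes. The windows of Cnn1, Tpm1, Tpm2, Cald1 and Lmod1 held neither, which says only that these letters are not in those 300 bases. Tagln, Actg2 and Myh11 had no entry.

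P28 clones were compared with Fgfr3-WT clones first, to ask how clones that had lost p53 differed from clones that had kept it soon after the pulse. In P28, 9 of the 10 genes rose and none fell (edgeR quasi-likelihood test, FDR 0.05), where 19.2% of all 17358 tested genes were called higher and 19.7% lower. The exception was Cald1. The median log2 fold change of the 10 genes was 4.91, beside -0.02 over all tested genes. No Fgfr3-WT clone reached the lowest P28 clone for any of the 10 genes, a separation found in 13% of tested genes. In P4M against Fgfr3-WT, 5 of 10 genes rose (Acta2, Tagln, Cnn1, Myl9 and Tpm1), where 22.3% of tested genes were called higher and 23.6% lower. Here the median log2 fold change was 2.37 (all tested genes, -0.06), and 4 of 10 genes separated the groups completely, against 17.8% of tested genes. With both Fgfr3-p53 cKO groups set against Fgfr3-WT, the same 9 genes as in P28 were higher and the median log2 fold change was 3.47 (all tested genes, -0.05). There, 23.1% of tested genes were called higher and 25.7% lower. These comparisons share the Fgfr3-WT clones and are not independent of each other.

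**Figure D1:**
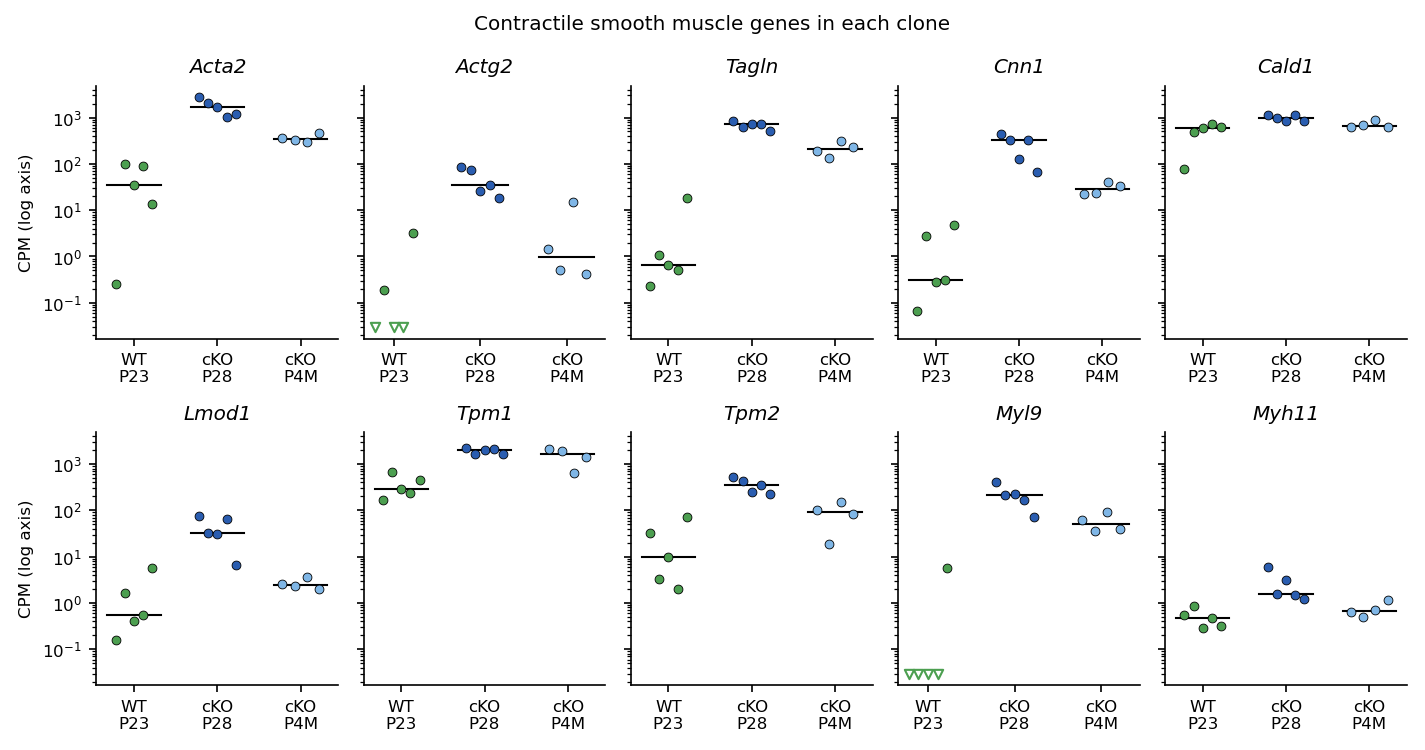
CPM of the 10 genes in each of the 14 clones on a log axis, with the group median as a line and clones without a count as open triangles at the foot of the panel. All 5 P28 clones lie above all 5 Fgfr3-WT clones in every panel, while P4M clones overlap Fgfr3-WT clones in 6 panels.

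Acta2 (chr19:34241090-34255590, minus strand, mm10) encodes the α-smooth muscle actin used to mark myofibroblasts. Acta2 measured 0.261, 99.5, 34.7, 91.0 and 13.7 CPM in Fgfr3-WT clones 1 to 5. In P28 clones 1 to 5 Acta2 measured 2709.9, 2019.6, 1691, 1052 and 1199.5 CPM. In P4M clones 1 to 4 the values were 353, 322, 297 and 475 CPM. The 3 groups did not overlap, with P4M between the other two, and Fgfr3-WT clone 1 stood far below the other Fgfr3-WT clones with 8 reads. Acta2 rose 36.2-fold in P28 (log2 fold change 5.18 ± 0.99 SE, adjusted p = 0.00142, edgeR) and 7.56-fold in P4M (2.92 ± 0.91, adjusted p = 0.0189). The P4M call was lost when the P28 clones were left out of the fit (adjusted p = 0.0529, edgeR).

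Actg2 (chr6:83512905-83536265, minus strand), the actin of visceral smooth muscle, was nearly undetected in Fgfr3-WT. Clones 1, 3 and 4 had no count, clone 2 had 0.191 CPM and clone 5 had 3.21 CPM. P28 clones measured 84.3, 73.6, 25.8, 35.6 and 18 CPM, and P4M clones 1.43, 0.501, 14.8 and 0.413 CPM. All P28 clones lay above both other groups, and P4M clone 3 stood apart from the other P4M clones, which lay within the Fgfr3-WT range. Actg2 rose in P28 (6.15 ± 1.55, adjusted p = 0.00736, edgeR), and the difference of P4M from Fgfr3-WT did not pass the test (2.69 ± 1.40, adjusted p = 0.133). Without Fgfr3-WT clone 5 the log2 fold changes of Actg2 were 9.98 in P28 and 6.51 in P4M, where it was then called (adjusted p = 0.00496, edgeR). Without P4M clone 3 that of P4M was 0.24.

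Among the actin-binding proteins, Tagln and Cnn1 went from a trace to abundant transcripts. Tagln (chr9:45929619-45936058, minus strand) encodes transgelin, or SM22α, an actin cross-linker expressed early in smooth muscle differentiation. Fgfr3-WT clones 1 to 5 had 0.228, 1.07, 0.647, 0.512 and 18.1 CPM of Tagln. In P28 clones Tagln measured 849, 629, 714, 714 and 505 CPM, and in P4M clones 194, 134, 313 and 232 CPM. The 3 groups did not overlap, and only Fgfr3-WT clone 5 lay above 2 CPM in its group. Tagln rose 167-fold in P28 (7.38 ± 1.17, adjusted p = 0.00044, edgeR) and 53.2-fold in P4M (5.73 ± 1.10, adjusted p = 0.00115). Without Fgfr3-WT clone 5 the log2 fold changes of Tagln were 10.13 in P28 and 8.48 in P4M. Of its 1988 exon bases in GENCODE M21, 1349 are shared with Gm48529 and Pcsk7 on the opposite strand. Of the 50-base windows along the Tagln transcripts, 58.3% also occur in transcripts of those genes, the library kit does not mark strand, and so these reads cannot be assigned to Tagln for certain. Pcsk7 measured 20.03 to 27.4 CPM in Fgfr3-WT and 31.2 to 54.3 CPM in P28, while Gm48529 measured 0.977 to 2.33 CPM and 12.6 to 19.1 CPM. As TPM, both were lower than Tagln in every Fgfr3-p53 cKO clone and in Fgfr3-WT clone 5, but higher than Tagln in Fgfr3-WT clones 1 to 4. Sharing with other genes was otherwise rare, at 0.326% of 50-base windows for Acta2, 0.34% for Myh11 and 0 for the other 7 genes.

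Cnn1 (chr9:22099216-22109630, plus strand) encodes basic calponin, an inhibitor of the myosin ATPase on thin filaments. Its CPM in Fgfr3-WT clones was 0.0652, 2.72, 0.283, 0.313 and 4.87. P28 clones had 442, 333, 129, 334 and 66.0 CPM, and P4M clones 22.1, 23.8, 40.8 and 33.5 CPM. Again the groups formed 3 steps without overlap, and P28 clone 5 was the P28 clone nearest to P4M. The rise was 160-fold in P28 (7.32 ± 1.03, adjusted p = 0.000218, edgeR) and 18.4-fold in P4M (4.20 ± 0.92, adjusted p = 0.0026). These rose to 8.29 and 5.18 on the log2 scale without Fgfr3-WT clone 5.

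Cald1 (chr6:34598500-34775473, plus strand) encodes caldesmon, which binds actin, myosin and calmodulin. It was already abundant in most Fgfr3-WT clones, with 76.8, 476, 583, 719.8 and 627 CPM. P28 clones lay at 1120.3, 976, 847, 1118 and 857 CPM and P4M clones at 637, 697, 894 and 623 CPM. P28 clones were all above Fgfr3-WT, but Fgfr3-WT clone 1 stood far below the other clones of its group. The difference of P28 from Fgfr3-WT did not pass the test (0.99 ± 0.40, adjusted p = 0.0674, edgeR) and passed without Fgfr3-WT clone 1 (adjusted p = 0.00504), with DESeq2 (0.0467), with limma on TPM (0.00876) and without scaling (0.0348). That of P4M did not pass (0.52 ± 0.42, adjusted p = 0.33).

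Lmod1 (chr1:135324807-135368065, plus strand) encodes leiomodin 1, which nucleates actin filaments in smooth muscle. Fgfr3-WT clones had 0.163, 1.65, 0.405, 0.541 and 5.78 CPM. P28 clones had 74.9, 32.7, 31.4, 64.4 and 6.76 CPM, and P4M clones 2.63, 2.30, 3.69 and 1.97 CPM. P28 clone 5 lay close above Fgfr3-WT clone 5, and all P4M clones fell within the Fgfr3-WT range. Lmod1 rose in P28 (4.63 ± 0.90, adjusted p = 0.00163, edgeR), and P4M did not pass against Fgfr3-WT (0.64 ± 0.84, adjusted p = 0.556) except without Fgfr3-WT clone 5 (1.95, adjusted p = 0.0415). Without that clone the log2 fold change of Lmod1 in P28 was 5.94.

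The tropomyosins, which cover the myosin-binding sites of actin filaments, started from unequal levels. Tpm1 (chr9:67022590-67049406, minus strand) measured 168, 669, 287, 241 and 445 CPM in Fgfr3-WT. P28 clones had 2225, 1678, 1968, 2142 and 1651 CPM, and P4M clones 2080.0, 1895, 646 and 1399 CPM. Only P4M clone 3 overlapped Fgfr3-WT, just below Fgfr3-WT clone 2. Tpm1 rose 5.34-fold in P28 (2.42 ± 0.38, adjusted p = 0.000423, edgeR) and 4.16-fold in P4M (2.06 ± 0.39, adjusted p = 0.00103). Tpm2 (chr4:43514711-43523765, minus strand) encodes β-tropomyosin, and its Fgfr3-WT clones had 32.4, 3.37, 9.79, 1.96 and 72.7 CPM. Its P28 clones had 514, 433, 247, 355 and 222 CPM, and its P4M clones 104, 19.2, 151 and 84.9 CPM. All P28 clones were above both other groups, and P4M clone 2 lay within the Fgfr3-WT range. Tpm2 rose 14.7-fold in P28 (3.88 ± 0.89, adjusted p = 0.00439, edgeR), while P4M did not pass (1.90 ± 0.86, adjusted p = 0.0847). Without Fgfr3-WT clone 5 the log2 fold changes of Tpm2 were 4.89 in P28 and 2.91 in P4M, and the latter passed (adjusted p = 0.0118, edgeR).

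The myosin subunits differed strongly in level from each other. Myl9 (chr2:156775420-156781658, plus strand) encodes the regulatory light chain that myosin light chain kinase phosphorylates. Fgfr3-WT clones 1 to 4 had no Myl9 count, and clone 5 had 147 counts or 5.82 CPM. P28 clones measured 403, 210.2, 222, 170.4 and 70.7 CPM, and P4M clones 62.2, 35.5, 91.9 and 40.2 CPM. Every Fgfr3-p53 cKO clone lay above Fgfr3-WT clone 5. Myl9 rose in P28 (7.56 ± 1.46, adjusted p = 0.00155, edgeR) and in P4M (5.66 ± 1.37, adjusted p = 0.00485), with fold sizes that rest on Fgfr3-WT clone 5. Without it, all remaining Fgfr3-WT clones are at 0.

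Myh11 (chr16:14194535-14291372, minus strand), the smooth muscle myosin heavy chain and a marker of mature smooth muscle, stayed low in every clone. It measured 0.554, 0.880, 0.283, 0.484 and 0.317 CPM in Fgfr3-WT, 6.07, 1.53, 3.08, 1.49 and 1.20 CPM in P28, and 0.646, 0.501, 0.691 and 1.15 CPM in P4M. P28 clones were all above Fgfr3-WT, and P4M clones overlapped Fgfr3-WT. Myh11 rose 5.28-fold in P28 (2.40 ± 0.51, adjusted p = 0.00247, edgeR) and did not pass in P4M (0.56 ± 0.52, adjusted p = 0.39). Its highest level was 1.55 TPM, in a P28 clone.

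**Figure D2:**
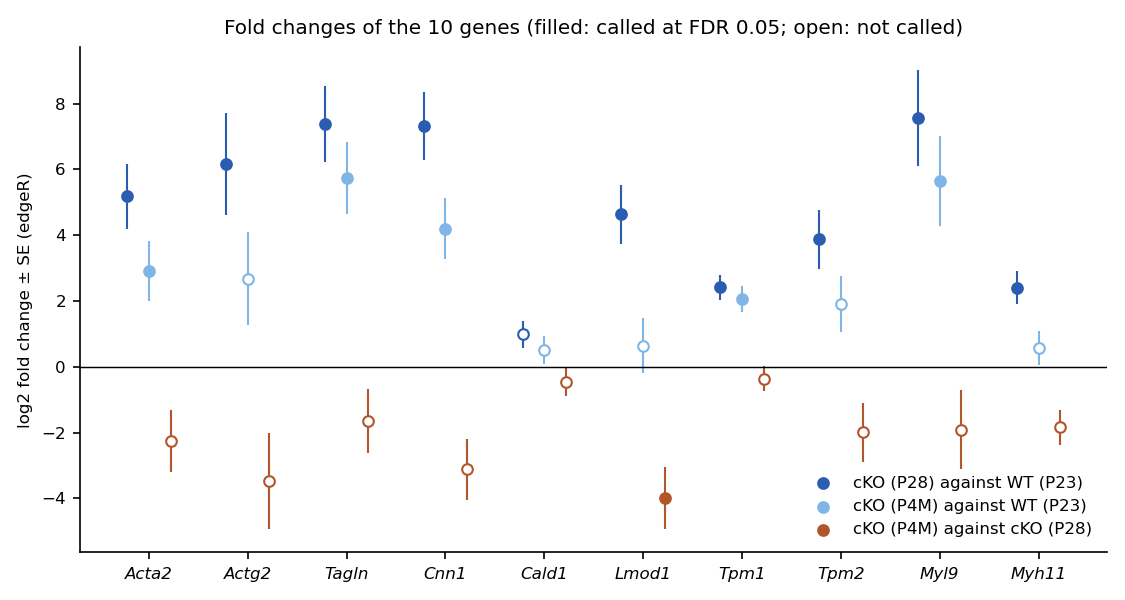
Log2 fold changes with SE (edgeR) of the 10 genes in 3 comparisons, of P28 and of P4M with Fgfr3-WT and of P4M with P28, filled where called at FDR 0.05. P28 is called for all genes but Cald1, P4M against Fgfr3-WT for 5 genes, and P4M against P28 for Lmod1 alone, although all 10 of its estimates are below 0.

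**Figure D3:**
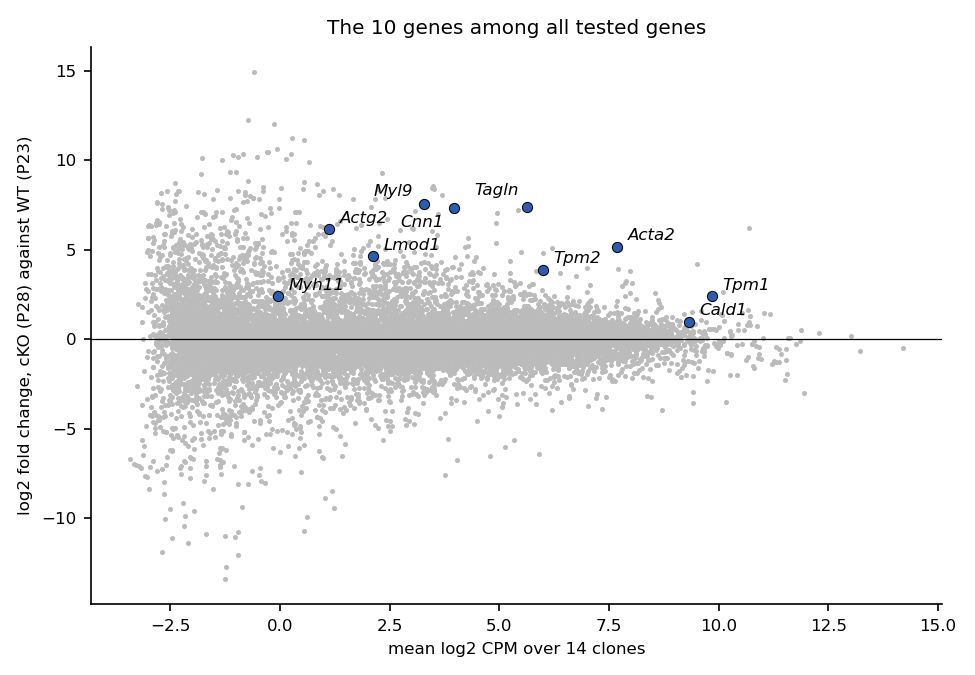
Log2 fold change of P28 against Fgfr3-WT (vertical) by the mean log2 CPM over 14 clones (horizontal) for all 17358 tested genes, with the 10 genes marked. All 10 lie above 0, from Cald1 at 0.99 to Myl9 at 7.56.

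Within the whole set of tested genes, ranked by log2 fold change in P28 against Fgfr3-WT, Myl9 stood at place 66, Tagln at 69 and Cnn1 at 74 of 17358. Actg2 and Acta2 followed at places 145 and 238, and Cald1 was the lowest at place 2701.

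P4M and P28 were compared to ask whether clones differed with time since p53 deletion in the bone. All 10 log2 fold changes were below 0, with a median of -1.94 (all tested genes, -0.01). Only Lmod1 passed the test, and it fell by 3.99 on the log2 scale (SE 0.95, adjusted p = 0.0272, edgeR), where 3.88% of tested genes were called lower and 3.34% higher. For 7 of 10 genes (Acta2, Tagln, Cnn1, Tpm2, Actg2, Lmod1 and Myh11) every P4M clone lay below every P28 clone, against 9.96% of tested genes. Cnn1 (-3.12 ± 0.92, adjusted p = 0.055) and Myh11 (-1.84 ± 0.53, adjusted p = 0.0511, edgeR) lay just beyond the threshold. Acta2 (-2.26 ± 0.94, adjusted p = 0.148), Tagln (-1.65 ± 0.97, adjusted p = 0.306) and Actg2 (-3.47 ± 1.47, adjusted p = 0.157, edgeR) did not pass. Tpm1 showed the smallest difference (-0.36 ± 0.39, adjusted p = 0.595, edgeR). The fit shared its estimate of each gene's spread over all 3 groups, Fgfr3-WT included. The median SD of log2 CPM of the 10 genes was 2.22 in Fgfr3-WT, 0.732 in P28 and 0.491 in P4M. The count of genes called depended on which clones entered the fit. When P4M and P28 clones were fitted alone, 7 genes were called lower (Lmod1, Acta2, Tagln, Cnn1, Myl9, Tpm2 and Myh11, with adjusted p for Acta2 of 0.00409 and for Tagln of 0.00598, edgeR). The call of Lmod1 was lost without any of 7 single clones, namely P28 clones 1, 3 and 4 and each of the 4 P4M clones (adjusted p up to 0.0767, edgeR).

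Levels between genes were compared as TPM, which divides by transcript length. Summed over the 10 genes, Fgfr3-WT clones held 249 to 881 TPM, P28 clones 4938 to 9426 TPM and P4M clones 2101 to 3133 TPM, that is 0.0249% to 0.0881%, 0.494% to 0.943% and 0.21% to 0.313% of all TPM. By median TPM the order in Fgfr3-WT was Tpm1 (281), Cald1 (236), Acta2 (26.6) and Tpm2 (13.4), with the other 6 genes below 1 TPM, and each gene's range overlapped that of the next. In P28 the order was Tpm1 (2121), Acta2 (1936), Tagln (987), Cald1 (538), Tpm2 (531), Cnn1 (460), Myl9 (388), Actg2 (55.3), Lmod1 (14) and Myh11 (0.40). There the ranges of Tpm1 and Acta2 overlapped, as did those of neighbours from Cald1 to Myl9 and of Actg2 and Lmod1. In P4M, Tpm1 (1528) stood above Acta2 (327), Cald1 (295), Tagln (260.2), Tpm2 (141) and Myl9 (86.6), which overlapped from one to the next. Cnn1 (37.6), Actg2 (1.32), Lmod1 (0.94) and Myh11 (0.16) followed, with overlap between Actg2 and Lmod1. Acta2 thus held the second place in both Fgfr3-p53 cKO groups and the third in Fgfr3-WT.

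Each muscle member was also set against the non-muscle genes of its own family, as a share of the family's summed TPM. Acta2 made up 0.0231% to 3.63% of actin TPM in Fgfr3-WT, 13.6% to 36.0% in P28 and 6.36% to 10.3% in P4M, while the cytoplasmic actins Actb and Actg1 made up nearly all the rest. The transgelins changed place, with Tagln going from 0.266% to 4.38% of transgelin TPM in Fgfr3-WT to 69.5% to 86.5% in P28 and 48.9% to 62.4% in P4M. Tagln2, the transgelin of non-muscle cells, held 95.6% or more in every Fgfr3-WT clone. The share of Cnn1 among calponins ran from 0.213% to 2.08% in Fgfr3-WT, 11.2% to 34.3% in P28 and 5.42% to 8.17% in P4M. Myl9 held at most 1.38% of regulatory light chain TPM in Fgfr3-WT, 10.6% to 42.9% in P28 and 7.28% to 16.8% in P4M. For these 4 genes no Fgfr3-WT clone reached any Fgfr3-p53 cKO clone, which uses the same TPM values as the levels and is no separate evidence. Tpm2 overlapped between groups (0.488% to 11.9%, 11.3% to 20.6% and 1.15% to 12.7% of tropomyosin TPM), and so did Tpm1 (40.6% to 70.0%, 54.2% to 62.6% and 35.2% to 73.2%). Myh11 never exceeded 0.226% of class II myosin heavy chain TPM, of which Myh9 held 74.1% or more in every clone.

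**Figure D4:**
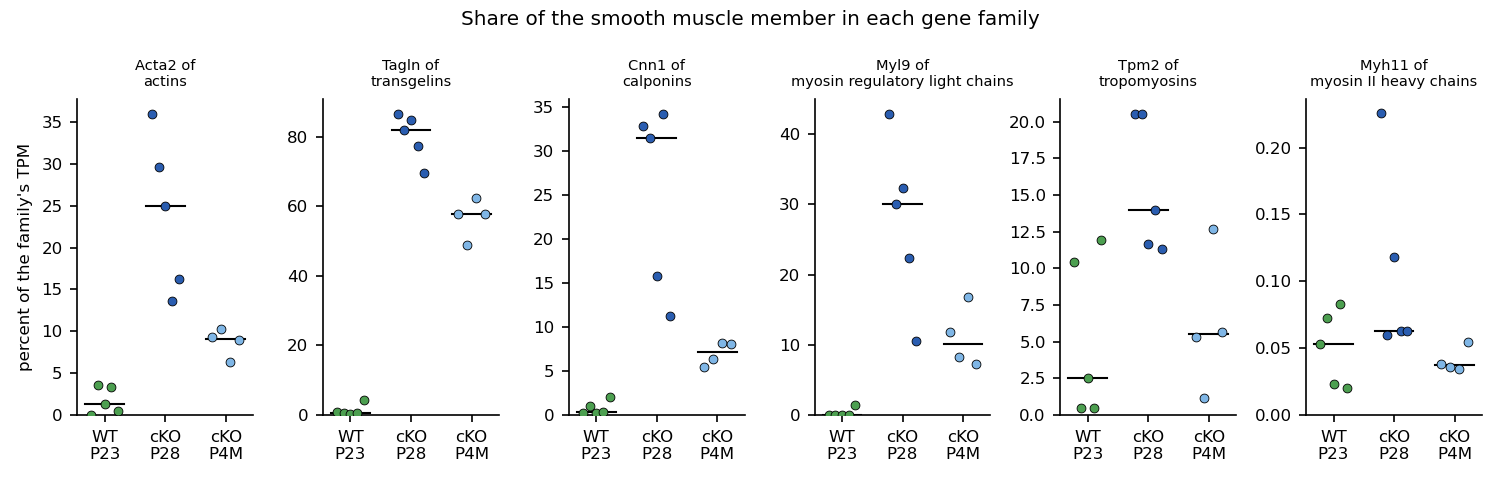
Share of each smooth muscle gene in the summed TPM of its gene family, in percent, for each clone, with the group median as a line. Tagln reaches 69.5% to 86.5% in P28, whereas Myh11 stays at or below 0.226% in all 14 clones.

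Clones of the same group varied widely in most of these genes in Fgfr3-WT and less in the Fgfr3-p53 cKO groups. The SD of log2 CPM within Fgfr3-WT was 3.42 for Acta2, above 99% of tested genes, 3.07 for Myl9 and 2.63 for Actg2. Myl9 had no count in 4 Fgfr3-WT clones and Actg2 none in 3, so their SD depends on the prior count and largely on Fgfr3-WT clone 5. Most of the 10 genes were low in Fgfr3-WT, and spread was not compared at equal levels. The median SD of the 10 genes was 2.22 in Fgfr3-WT, 0.732 in P28 and 0.491 in P4M, beside 0.515, 0.326 and 0.307 over all tested genes. Not every gene stood out, since in P28 the SD of Tagln, Tpm1 and Cald1 was above only 42.3%, 26% and 25.7% of tested genes, and in P4M that of Acta2 and Cald1 above 48.4% and 39.2%. Acta2 ranged 321-fold among Fgfr3-WT clones, 2.57-fold among P28 clones and 1.60-fold among P4M clones. Fgfr3-WT clone 5 was the highest of its group for 6 of 10 genes and Fgfr3-WT clone 1 the lowest for 8, yet clone 5 was the second lowest for Acta2. Thus Acta2 and Tagln did not rank the Fgfr3-WT clones alike. P28 clone 1 was the highest of its group for all 10 genes and P28 clone 5 the lowest for 8. P4M clone 3 was the highest for 7 genes and the lowest for Acta2 and Tpm1.

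Likeness to Acta2 was described by Pearson's r of log2 CPM over the 14 clones after each group's mean was subtracted, among 9659 genes whose log2 CPM averaged 3 or more. The 10 genes most like Acta2 were Rbbp7, Cenpb, Snx12, Mospd2, Zc4h2, Clmp, Pdzd11, Phka1, Hsd17b10 and Parp12, with r from 0.978 down to 0.95. None was a contractile gene, and 7 of 10 lie on the X chromosome, against 322 of the 9659 genes compared. Among the members, Cald1 came at place 112 (r = 0.88), Tpm1 at 1840 (0.49), Cnn1 at 1910 (0.478), Tagln at 3298 (0.23), Myl9 at 4834 (-0.0153) and Tpm2 at 8099 (-0.559). Without Fgfr3-WT clones 1 and 2, the 2 clones farthest from their group mean in Acta2, none of the 10 genes stayed among the 10 most like Acta2, and r for Cald1 was 0.15. The list therefore rests on those clones. In Fgfr3-WT clone 1, the median of 322 X-linked genes lay 1.46 below the other Fgfr3-WT clones on the log2 scale relative to autosomal genes. In the 13 other clones this shift lay between -0.09 and 0.57, and its part in the Acta2 values was not tested.

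Of the regulators of these genes, the transcripts of Srf and of the coactivator genes Mrtfa and Myocd were higher in both Fgfr3-p53 cKO groups. Srf measured 15.9 to 40.9 CPM in Fgfr3-WT, 64.6 to 115 CPM in P28 and 49.3 to 62.5 CPM in P4M, with no overlap of either Fgfr3-p53 cKO group with Fgfr3-WT. It rose in P28 (1.83 ± 0.24, adjusted p = 0.000122, edgeR) and in P4M (1.08 ± 0.24, adjusted p = 0.00306). Mrtfa, the coactivator released when actin polymerizes, rose in P28 (1.38 ± 0.24, adjusted p = 0.000802, edgeR) and in P4M (0.69 ± 0.25, adjusted p = 0.0371). Its P28 clones (84.9 to 153 CPM) lay above the Fgfr3-WT clones (22.4 to 57.1 CPM), and P4M clone 2 overlapped them. Mrtfb did not pass in either (P28, 0.03 ± 0.23, adjusted p = 0.927; P4M, -0.33 ± 0.24, adjusted p = 0.286, edgeR).

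Myocd, which encodes myocardin, the smooth and cardiac muscle coactivator of SRF, went in another order from the contractile genes. It had 1 count in the 5 Fgfr3-WT clones together, 38 in P28 and 344 in P4M. In P28 clones 1 to 5 it measured 0.0860, 0.0239, 0.0199, 0.463 and 0.231 CPM, and in P4M clones 1 to 4 2.35, 1.66, 0.257 and 2.93 CPM. The ratio to Fgfr3-WT was 23.7 in P28 (95% exact interval 4.01 to 962, counting error only) and 256 in P4M (45.6 to 10100). Myocd was called higher in both (adjusted p = 0.0243 and 0.000418, edgeR) and higher in P4M than in P28 (adjusted p = 0.0308, edgeR), while 10 of 10 contractile genes had estimates below 0 in that comparison. The lowest P4M clone for Myocd was clone 3, which was the highest for 7 contractile genes. No clone exceeded 1.0 TPM of Myocd.

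**Figure D5:**
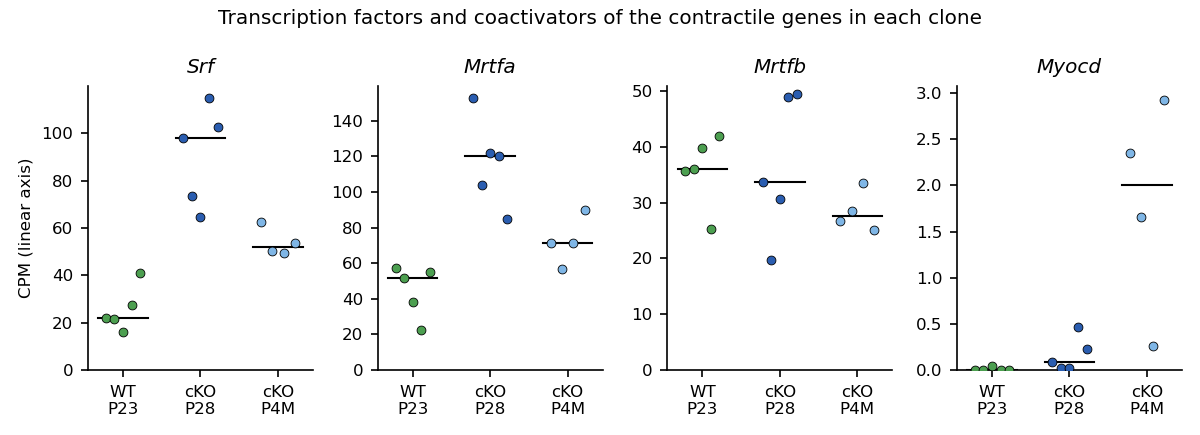
CPM of Srf, Mrtfa, Mrtfb and Myocd in each clone on linear axes that start at 0 and differ between panels, with the group median as a line. Srf and Mrtfa are highest in P28, Mrtfb overlaps in all groups, and Myocd is highest in P4M, up to 2.93 CPM.

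Of the 13 regulators in all, 4 were called higher and none lower in P28 against Fgfr3-WT, and 5 higher and 1 lower in P4M. The shares over all tested genes were 19.2% higher and 19.7% lower in P28, and 22.3% and 23.6% in P4M, here and for the lists below. The median log2 fold change of the 13 genes was 0.53 in P28 and 0.09 in P4M. Between P4M and P28, 2 regulators, Myocd among them, were called higher and 1 lower. Of all tested genes, 3.34% were called higher and 3.88% lower there. Besides the regulators above, Rhoa, the GTPase that drives stress fiber assembly, rose in the 2 Fgfr3-p53 cKO groups combined (0.70 ± 0.11, adjusted p = 0.000236, edgeR). Prkg1, the cGMP-dependent kinase that relaxes smooth muscle, fell in the same comparison (-2.01 ± 0.37, adjusted p = 0.000724, edgeR).

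Further contractile apparatus genes, a list of 20 with 18 tested, were called higher for 11 and lower for 1 in P28 against Fgfr3-WT, and higher for 6 and lower for 3 in P4M. Between P4M and P28, 7 of 18 fell and none rose, where 3.88% of all tested genes were called lower and 3.34% higher. In both Fgfr3-p53 cKO groups together against Fgfr3-WT, Vcl (vinculin, 2.73 ± 0.18, adjusted p = 5.12e-07), Csrp1 (2.52 ± 0.27, adjusted p = 1.93e-05) and Fhl1 (2.17 ± 0.64, adjusted p = 0.0133, edgeR) rose. Of 15 non-muscle counterparts, the cytoplasmic actins, tropomyosins, calponins and myosins, 10 were higher and 1 lower in P28, and 7 higher and 3 lower in P4M. Among them, Tpm4 (2.19 ± 0.18, adjusted p = 2.6e-06), Myh10 (2.10 ± 0.38, adjusted p = 0.00062) and Cnn2 (1.42 ± 0.16, adjusted p = 2.07e-05, edgeR) rose in both Fgfr3-p53 cKO groups together, and Myl12b fell (-0.52 ± 0.17, adjusted p = 0.0204). Summed TPM of these 15 genes was 3433 to 7150.4 in Fgfr3-WT, 11486 to 14783 in P28 and 6430 to 9546 in P4M.

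Markers of other cells that could hold contractile transcripts were examined in the same clones. In bulk RNA, fewer cells of a type and less RNA per cell cannot be told apart. Of 18 striated muscle markers, 15 were under 1 TPM in every clone, and Myod1, Myog and Pax7, which define skeletal muscle precursors, were listed at 0 in all 14. The summed TPM of the 18 markers was 0.43 to 5.68 in Fgfr3-WT, 3.95 to 27.2 in P28 and 1.92 to 2.95 in P4M, of which Acta1 reached 19.3 TPM in 1 clone. Of the 4 striated muscle markers tested, 2 were called higher and none lower in P28, and 1 higher and none lower in P4M. The 11 mural cell markers, of pericytes and vascular smooth muscle, summed to 90.4 to 237 TPM in Fgfr3-WT, 199 to 242 TPM in P28 and 220.2 to 264 TPM in P4M, with Pdgfrb at 54.5 TPM or more in every clone. Of the 8 tested, 1 was called higher and none lower in P28, and 2 higher and 1 lower in P4M. Over all tested genes, 19.2% were called higher and 19.7% lower in P28, and 22.3% and 23.6% in P4M. Cspg4 rose in both Fgfr3-p53 cKO groups together (1.38 ± 0.32, adjusted p = 0.00322, edgeR), and so did Mcam, a cell adhesion molecule of mural, endothelial and stromal cells (4.71 ± 0.48, adjusted p = 1.23e-05). Mcam measured 0.04 to 0.84 TPM in Fgfr3-WT, 10.3 to 20.6 TPM in P28 and 3.44 to 5.72 TPM in P4M, with the 3 groups apart in the same order as Acta2, and it fell in P4M against P28 (adjusted p = 0.0489, edgeR). The pericyte marker Rgs5 was called lower in both Fgfr3-p53 cKO groups together (-4.86 ± 1.51, adjusted p = 0.0172, edgeR). Its Fgfr3-WT level rests on 1 clone at 23.1 TPM, however. The median of Rgs5 was 0.04 TPM in Fgfr3-WT, 0.19 TPM in P28 and 0.085 TPM in P4M. Abcc9 and Higd1b stayed below 1 TPM in every clone. Of 7 endothelial markers, 5 were under 1 TPM in every clone, and Cdh5 and Tie1 were listed at 0 in all. They summed to 0.46 to 1.68 TPM in Fgfr3-WT, 0.28 to 2.33 TPM in P28 and 3.06 to 108 TPM in P4M, where Vwf alone reached 104.8 TPM in 1 clone (median 2.57 TPM). Of the 2 tested, Kdr was called higher in P28, and Kdr and Vwf in P4M against Fgfr3-WT. The 7 haematopoietic markers summed to 22.9 to 165 TPM in Fgfr3-WT, 5.4 to 34.5 TPM in P28 and 6.86 to 11.9 TPM in P4M, with Ptprc at 0.07 TPM or less. Of the 3 tested, 1 was called higher and 2 lower in P28, and none higher and 2 lower in P4M. Lyz2 fell in both Fgfr3-p53 cKO groups together (-2.96 ± 0.59, adjusted p = 0.00119, edgeR).

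The labels call the clones skeletal cells, and all 9 skeletal lineage markers reached at least 1 TPM in some clone. They summed to 344 to 5693 TPM in Fgfr3-WT, 4494 to 6918 TPM in P28 and 2066 to 12891 TPM in P4M. These sums join genes that went in opposite directions, so like totals do not mean that the same genes were expressed. Of the 9 genes, 2 were called higher and 3 lower in P28, and 3 and 3 in P4M, beside the shares over all tested genes given above. The part of these markers in the levels of the contractile genes was not tested.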

How the data were processed

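Bulk RNA-seq of 14 clones was used: 5 Fgfr3-WT (P23), 5 Fgfr3-p53 cKO (P28) and 4 Fgfr3-p53 cKO (P4M). The authors made libraries with a SMART-Seq kit, mapped the reads, which are single-end, with TopHat and Bowtie2 (mm10), and used HTSeq to count them. The raw counts were deposited without normalization, and they equal a deposited table of expected counts, so how reads shared by genes were counted is not settled. The authors also deposited TPM values, scaled to each library. Deposited normalized counts, rlog values and FPKM were not used.

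Here counts were tested in R 4.3.3 with edgeR 4.0.16 (TMM, filterByExpr, robust quasi-likelihood fit of 3 group means over 14 clones), which left 17358 genes. P values were adjusted by Benjamini and Hochberg, with calls at FDR 0.05. SE is the log2 fold change divided by the root of F. CPM uses TMM-scaled totals, and log2 CPM a prior count of 2. The edgeR fit was also run on simulated counts with the same spread setting for every gene and group. That run cannot speak to the unequal spread between groups seen for these genes. Alternatives used DESeq2 1.42.0 and limma 3.58.1 on log2(TPM + 1), other scalings and filters, and each clone left out. Intervals and limits cover counting error only, since the reads have no molecular identifiers. Positions are from GENCODE M21 (GRCm38), and promoters from RefSeq.

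The members and lists were chosen with earlier results of these data known. The rule names all members, Trp53, Srf, Myocd, Mrtfa and Mrtfb. From each other list it names up to 3 genes called higher and 3 lower in all Fgfr3-p53 cKO against Fgfr3-WT by size, if their log2 CPM averaged 3 or more, and the 10 genes most like Acta2. Gm48529, Pcsk7, and marker genes given by level were named after their values were seen. Skeletal lineage genes under the rule are given as sums. An item that the rule takes is not reported here. Protein sequences were not analysed here.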

Additional observations from a re-analysis of the deposited data

Results flagged for a closer look

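In each group the highest and the lowest clone were compared with the rest of the group for all 10 genes, and a clone was picked out where its gap to the nearest clone exceeded Dixon's 95% critical value. This held in 5 of 30 groups. The 30 groups reuse the same clones and the CPM values were not put on a log scale, so no chance rate is given for this count. Fgfr3-WT clone 5 stood above the other Fgfr3-WT clones for 4 genes. Its Tagln was 18.1 CPM, with the others at 0.228 to 1.07 CPM. Its Myl9 was 5.82 CPM, with the others at 0. Its Actg2 was 3.21 CPM, with the others at 0 to 0.191 CPM, and its Lmod1 was 5.78 CPM, with the others at 0.163 to 1.65 CPM. P4M clone 3 had 14.8 CPM of Actg2, with the other P4M clones at 0.413 to 1.43 CPM.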

How the results depend on the processing

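Across DESeq2, RLE scaling, no scaling, no filter, at least 10 counts in every clone, only the groups compared, a minimum log2 fold change, limma on TPM and each clone left out, no fold change of the 10 genes reversed its sign. A fit with only the groups compared could not differ for all Fgfr3-p53 cKO against Fgfr3-WT. With at least 10 counts in every clone, 3 of the 10 genes remained tested, and 2 of 9 were called in P28 against Fgfr3-WT, 1 of 5 in P4M against Fgfr3-WT, 0 of 1 in P4M against P28 and 2 of 9 in all Fgfr3-p53 cKO against Fgfr3-WT. For P4M against P28, 2 genes were called with no scaling, 7 with only the groups compared, 3 with limma and 3 with DESeq2, and the cause was not tested. When each clone was left out in turn, the called genes numbered 9 to 10 in P28 against Fgfr3-WT, 5 to 8 in P4M against Fgfr3-WT (8 without Fgfr3-WT clone 5), 0 to 4 in P4M against P28 and 9 to 10 in all Fgfr3-p53 cKO against Fgfr3-WT. Single calls that ended were those of Acta2 in P4M against Fgfr3-WT with only the groups compared, of Lmod1 in P4M against P28 in 7 fits that left out a clone, and of Myh11 in all Fgfr3-p53 cKO against Fgfr3-WT with limma on TPM (adjusted p = 0.056). No paired analysis was possible because the clone numbers are names only and tie no clone of a group to a clone of another. Depth limits what can be said of Actg2 and Myl9 in Fgfr3-WT.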
